A study of Homo sapiens with 30 samples.

Results

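The tonic formula Sibjeondaebo-tang was compared with Palmul-tang over all doses, in all 9 libraries of the Sibjeondaebo-tang water extract and all 9 of the Palmul-tang water extract. These are 18 of the 30 libraries of the series, taken as all those that the labels place in either group. Both extracts were given for 24 h to SW1783, an established human astrocytoma cell line, at 20, 100 and 500 µg/mL with 3 libraries per formula and dose. The vehicle had 3 libraries, whose levels are printed beside some genes and enter no test. Its DMSO content is 0.1% in the sample labels and 2% in the series description, and which holds for these libraries is not known. No DMSO content is recorded here for the extract libraries, so the solvent's part in any difference from vehicle cannot be told apart. Whether libraries of 1 group stem from separate cultures is not stated, so each p-value covers the spread between libraries, which may be technical. Dose was a covariate, and each pooled fold change is 1 fitted value of Sibjeondaebo-tang over Palmul-tang for all 3 doses, on the log2 scale. It need not equal the plain mean of the 3 dose differences, above all where levels change with dose.

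Sibjeondaebo-tang and Palmul-tang are herbal formulas of traditional Korean medicine given as tonics. Sibjeondaebo-tang combines the herbs of Palmul-tang with Astragalus root and cinnamon bark, so a comparison of both asks whether cells read the larger formula differently from the smaller one. Each dose was an amount of whole extract, and the content of any shared herb may therefore differ between the formulas at the same dose. Astragalus is known for its saponins and polysaccharides and cinnamon bark for cinnamaldehyde, an electrophile that acts on the NRF2 stress pathway and on the calcium channel TRPA1. Extracts of this kind act on many pathways at once, and RNA profiles are one way to set the formulas side by side.

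Total counts ran from 25.1 M to 37.8 M in Sibjeondaebo-tang and from 23.4 M to 31.2 M in Palmul-tang, with means of 29.9 ± 3.58 M and 27.6 ± 2.41 M (SD, n = 9 each; exact permutation test within doses, two-sided, p = 0.139). The mesenchymal glioma markers were abundant in both formulas, with VIM, the filament protein vimentin, at 5082 CPM (a count relative to the library total, scaled by TMM) in Sibjeondaebo-tang and 5018 CPM in Palmul-tang. Of 10 astrocyte markers 6 could be tested, among them the gap junction gene GJA1 at 248 CPM in Sibjeondaebo-tang and 252 CPM in Palmul-tang. GFAP, the filament protein that defines mature astrocytes, had 35 counts in all 18 libraries together, and the water channel gene AQP4 had 9. The microglia receptor gene P2RY12 had 0 counts and the myelin gene MOG had 1. Other members of both lists were present. Of 7 microglia and blood markers 4 could be tested, and of 6 oligodendrocyte markers 2, MBP among them. Over the 18 libraries CD68, a microglia and blood marker, ranged from 143 to 173 CPM, and CSF1R from 1.75 to 3.34 CPM. Exons of CD68 overlap another annotated gene on the same strand by 1789 bases. KRT18, a keratin of simple epithelia, was present at 137 CPM in Sibjeondaebo-tang and 136 CPM in Palmul-tang. Of the 31 tested markers of 7 cell types 0 passed the adjusted threshold between the formulas. Sibjeondaebo-tang at 500 µg/mL replicate 3 stood apart from its group: its counts differed from those of replicates 1 and 2 by a chi-square of 11.7 and 10.5 per gene, against 3.30 between these 2. It also lay alone on the second principal component, which held 13.3% of the variance. Without it, CLSPN, HSP90B1, ID1, IFIT2, MT-ND6, NPTX1, PFKFB3, SAMD11, TKT and TSC22D3, all described in the following, had an unadjusted p of 0.05 or more for the formula difference, against a p under 0.05 in all 18 libraries. This was not particular to that library. With each of the 18 libraries left out in turn, p stayed under 0.05 in 5 fits for ID1 and up to 16 for NPTX1. Genes outside this set were as fragile, with 4 of 18 fits for MCM2, 7 for CXCL8 and OASL and 9 for NFKB2.

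The formulas gave closely similar RNA levels, and no gene passed the adjusted threshold between them. Of 16810 genes that passed the filter on low counts, edgeR's quasi-likelihood test called 0 (0%) at a Benjamini-Hochberg adjusted p under 0.05. At an unadjusted p under 0.05 there were 699 (4.16%), of which 374 (2.22%) had higher and 325 (1.93%) lower levels in Sibjeondaebo-tang. DESeq2 called 2 genes, BEX1 and PLAT, both lower in Sibjeondaebo-tang. Without Sibjeondaebo-tang at 500 µg/mL replicate 3 edgeR called 1 gene, BEX1.

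The data bounded the formula difference closely for most expressed genes. In the 10294 genes whose log2 CPM averaged 3 or more, the median size of the log2 fold change was 0.019 and the 95% interval had a median half-width of 0.060. That interval lay within 1.1-fold in both directions for 90.2% of these genes and within 1.2-fold for 99.4%. It reached 1.5-fold for 11 genes. Each interval is for 1 gene and carries no correction for the number of genes. Genes under a mean log2 CPM of 1 were bounded far less well: the half-width had a median of 0.37 over 4082 genes, and 66.0% of them were held within 1.5-fold.

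**Figure D1:**
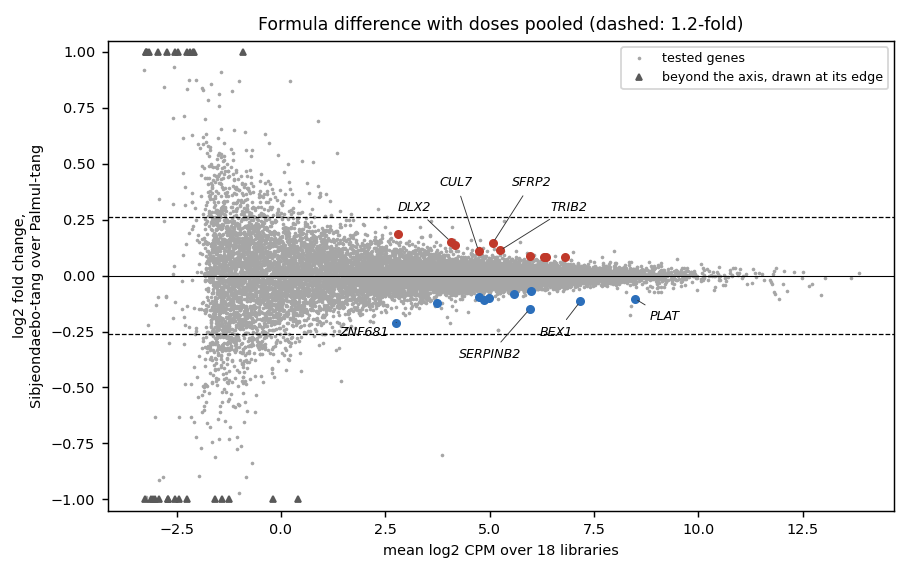
Each point is 1 of the 16810 tested genes, with its mean log2 CPM over 18 libraries on the x axis and its log2 fold change of Sibjeondaebo-tang over Palmul-tang, doses pooled, on the y axis. Coloured points are the 10 genes each way with the smallest unadjusted p above the expression floor for naming (mean log2 CPM 1), 8 of them named, and all 20 lie between -0.21 and 0.19. The 28 genes beyond ±1 are drawn at the edge as triangles and have a mean log2 CPM of at most 0.41.

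BEX1 came nearest to the threshold. It is a small gene of the brain-expressed X-linked family (ENSG00000133169, chromosome X, 103062651 to 103064240 on GRCh38) that has been tied to neurotrophin receptor signals. At 20 µg/mL it had 131, 126 and 124 CPM in Sibjeondaebo-tang and 137, 133 and 134 CPM in Palmul-tang. At 100 µg/mL the values were 129, 136 and 136 CPM in Sibjeondaebo-tang and 143, 148 and 144 CPM in Palmul-tang. It had 159, 162 and 149 CPM in Sibjeondaebo-tang and 171, 177 and 171 CPM in Palmul-tang at 500 µg/mL. Every Sibjeondaebo-tang library lay below every Palmul-tang library of its dose, and all of them lay above the vehicle mean of 123 ± 2.73 CPM (SD, n = 3). BEX1 also went up with dose in both formulas, by 0.30 ± 0.037 (log2, SE, 500 over 20 µg/mL) in Sibjeondaebo-tang and by 0.36 ± 0.037 in Palmul-tang. Since RNA was measured in bulk, fewer cells that make BEX1 and less of its RNA per cell cannot be told apart. The formula difference was -0.12 ± 0.021 (log2, SE; 95% interval -0.16 to -0.073; edgeR, adjusted p = 0.054), and the adjusted p was 0.0476 without Sibjeondaebo-tang at 500 µg/mL replicate 3. Its family member BEX3 stood at 99.5 CPM in Sibjeondaebo-tang and 100.04 CPM in Palmul-tang, with a log2 fold change of -0.0069 ± 0.025.

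PLAT, PLAU and SERPINB2 belong to the plasminogen system, which dissolves fibrin and remodels matrix, and all 3 were among the 10 genes with the smallest p in their direction. PLAT encodes tissue plasminogen activator (ENSG00000104368, chromosome 8, 42175233 to 42207724). It had 371, 347 and 369 CPM in Sibjeondaebo-tang and 379, 369 and 371 CPM in Palmul-tang at 20 µg/mL. At 100 µg/mL it had 324, 316 and 337 CPM in Sibjeondaebo-tang and 350, 355 and 340 CPM in Palmul-tang. It had 336, 335 and 355 CPM in Sibjeondaebo-tang and 388, 385 and 379 CPM in Palmul-tang at 500 µg/mL. The formulas did not overlap at 100 and 500 µg/mL and overlapped at 20 µg/mL, and the 18 libraries lay below the vehicle mean of 413 ± 17.1 CPM. The log2 fold change was -0.10 ± 0.021 (95% interval -0.15 to -0.059; edgeR, adjusted p = 0.238).

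SERPINB2 encodes the inhibitor PAI-2 of both plasminogen activators and is one of the genes that rise with dose in both formulas. It averaged 33.8 ± 3.23 CPM in Sibjeondaebo-tang and 39.3 ± 3.46 CPM in Palmul-tang at 20 µg/mL (SD, n = 3 each). At 500 µg/mL it averaged 107 ± 6.56 CPM in Sibjeondaebo-tang and 119 ± 1.03 CPM in Palmul-tang, with no overlap. The pooled log2 fold change was -0.15 ± 0.041 (edgeR, adjusted p = 0.999), beside a dose change of 1.63. PLAU, the urokinase gene, had values on the other side. It averaged 105 ± 4.99 CPM in Sibjeondaebo-tang and 102 ± 0.349 CPM in Palmul-tang at 20 µg/mL, and 131 ± 4.01 CPM in Sibjeondaebo-tang and 118 ± 3.01 CPM in Palmul-tang at 500 µg/mL. Its pooled log2 fold change was 0.082 ± 0.023 (edgeR, adjusted p = 0.999). Exons of SERPINB2 overlap 547 bases of SERPINB10 on the same strand, and exons of PLAU overlap 916 bases of C10orf55 on the other strand.

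**Figure D2:**
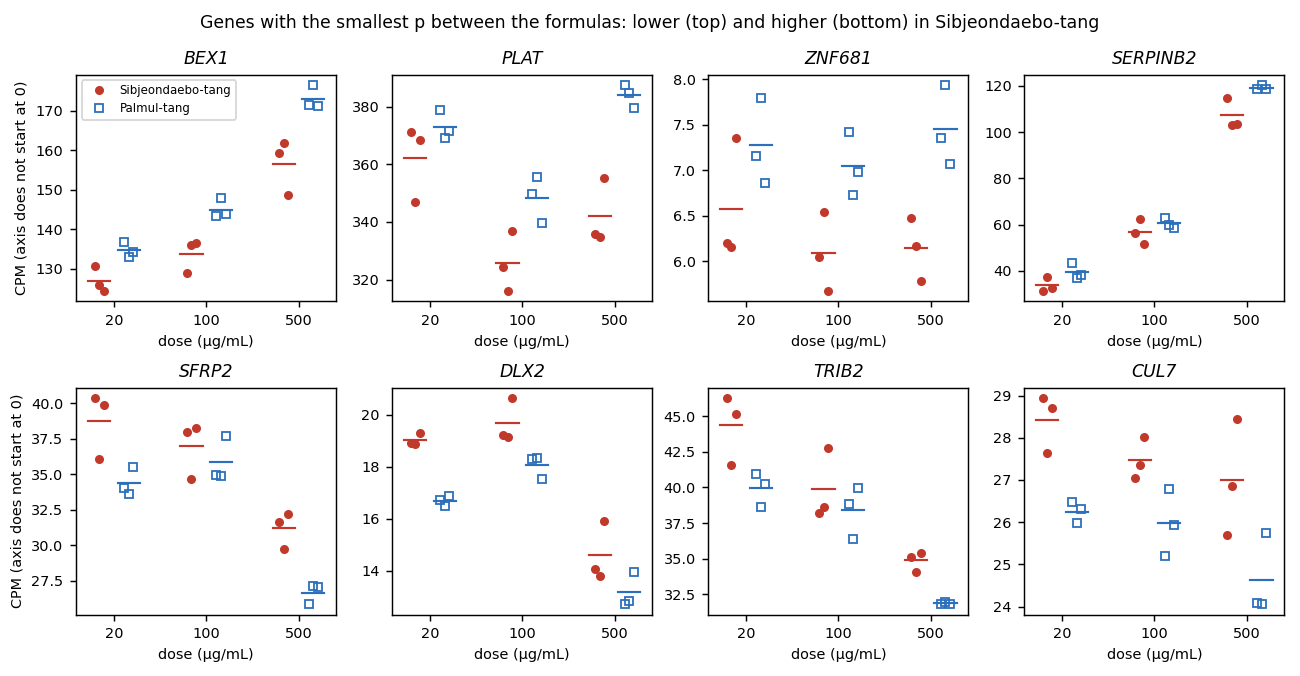
Points are the CPM of each library at 20, 100 and 500 µg/mL (x axis), with Sibjeondaebo-tang as filled circles and Palmul-tang as open squares, and short lines are means of 3. The y axes do not start at 0. BEX1 separates the formulas at each dose, while PLAT at 20 µg/mL, SERPINB2 at 20 and 100 µg/mL and SFRP2 at 100 µg/mL show libraries of both formulas in the same range.

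The other genes with lower values in Sibjeondaebo-tang had small differences. ZNF681, a zinc finger gene of chromosome 19, averaged 6.14 ± 0.347 CPM in Sibjeondaebo-tang and 7.46 ± 0.441 CPM in Palmul-tang at 500 µg/mL, and its pooled log2 fold change of -0.21 ± 0.052 was the largest of the 10. TRAF1, an adaptor of tumor necrosis factor receptors and a target of NF-kappa B, averaged 17.3 ± 0.43 CPM in Sibjeondaebo-tang and 19.3 ± 1.1 CPM in Palmul-tang at 500 µg/mL (log2 fold change -0.12 ± 0.039). CD9, a tetraspanin of the cell surface, ranged from 43.2 to 50.3 CPM with a median of 46.2 in Sibjeondaebo-tang and from 48.3 to 51.9 CPM with a median of 49.4 in Palmul-tang, so that the ranges overlapped. The remaining 4 were SRGAP1, a protein of Slit signals, UTP23, a factor of ribosome assembly, DACT1, a regulator of Wnt signals, and UCK2, a kinase that salvages uridine and cytidine. Their log2 fold changes were -0.098, -0.11, -0.094 and -0.068, with edgeR adjusted p of 0.999 each.

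On the other side, SFRP2 and DLX2 led the genes with higher values in Sibjeondaebo-tang. SFRP2 encodes a secreted protein that binds Wnt ligands (ENSG00000145423, chromosome 4, 153780592 to 153789120). At 20 µg/mL it had 40.4, 36.1 and 39.9 CPM in Sibjeondaebo-tang and 34.0, 33.6 and 35.5 CPM in Palmul-tang. At 100 µg/mL it had 38.0, 34.7 and 38.2 CPM in Sibjeondaebo-tang and 34.9, 34.9 and 37.7 CPM in Palmul-tang. It had 31.7, 29.8 and 32.2 CPM in Sibjeondaebo-tang and 25.9, 27.1 and 27.1 CPM in Palmul-tang at 500 µg/mL. The formulas were apart at the low and high dose and overlapped at the middle one, and SFRP2 fell with dose in the pooled fit (-0.34, log2, 500 over 20 µg/mL; edgeR, adjusted p = 7.62e-08). Its formula difference was 0.15 ± 0.033 (log2, SE; 95% interval 0.080 to 0.21; edgeR, adjusted p = 0.477).

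DLX2 and DLX1 are neighbouring homeobox genes of chromosome 2 (GRCh38) that pattern the forebrain, and both stood among the 10. DLX2 (172099439 to 172102900) averaged 17.8 CPM in Sibjeondaebo-tang and 15.97 CPM in Palmul-tang over the doses. Its libraries had 18.9, 18.9 and 19.3 CPM in Sibjeondaebo-tang and 16.7, 16.5 and 16.9 CPM in Palmul-tang at 20 µg/mL, and 14.1, 13.8 and 15.9 CPM in Sibjeondaebo-tang and 12.7, 12.8 and 14.0 CPM in Palmul-tang at 500 µg/mL. At 500 µg/mL 1 Palmul-tang library lay above 1 Sibjeondaebo-tang library. The log2 fold change was 0.15 ± 0.036 (95% interval 0.080 to 0.22; edgeR, adjusted p = 0.605), and DLX1 had 0.14 ± 0.041. Both stood below the vehicle level in both formulas, at 24.1 ± 1.25 CPM for DLX2 and 21.6 ± 1.36 CPM for DLX1 in vehicle.

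The other 7 genes with higher values in Sibjeondaebo-tang were TRIB2, CUL7, TRIM66, AREL1, ATG9A, CDK5RAP3 and PLAU. TRIB2, a pseudokinase that steers proteins to degradation, averaged 34.9 ± 0.684 CPM in Sibjeondaebo-tang and 31.9 ± 0.104 CPM in Palmul-tang at 500 µg/mL, and its pooled log2 fold change was 0.11 ± 0.029. CUL7, a scaffold of ubiquitin ligases, had 0.11 ± 0.029 at levels of 27.6 CPM in Sibjeondaebo-tang and 25.6 CPM in Palmul-tang. TRIM66 had the largest value, 0.19 ± 0.050, at 7.77 ± 0.699 CPM in Sibjeondaebo-tang and 6.61 ± 0.156 CPM in Palmul-tang at 500 µg/mL. AREL1, a ubiquitin ligase, ATG9A, a membrane protein of early autophagosomes, and CDK5RAP3, a factor of protein UFMylation, had 0.082, 0.085 and 0.088. Exons of ATG9A and CDK5RAP3 overlap other annotated genes on the same strand, by 1833 and 1860 bases.

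At each of the 3 doses separately, the formulas did not overlap for 6 genes, which is 0.0357% of the genes tested. In all 6 Sibjeondaebo-tang was lower, and 0 genes (0%) were higher at each dose. BEX1 and UCK2 were among them. The other 4 fell outside the rule for naming genes and were picked after their values were seen. HSDL2, a peroxisomal dehydrogenase-like protein, averaged 95.3 CPM in Sibjeondaebo-tang and 99.9 CPM in Palmul-tang, and SMARCC1, a core subunit of the SWI/SNF chromatin remodeller, averaged 149.9 CPM in Sibjeondaebo-tang and 155 CPM in Palmul-tang. ABCC9, the regulatory subunit of an ATP-sensitive potassium channel, averaged 11.2 CPM in Sibjeondaebo-tang and 12.05 CPM in Palmul-tang. IQCH averaged 4.38 CPM in Sibjeondaebo-tang and 4.95 CPM in Palmul-tang. Their log2 fold changes were -0.068, -0.051, -0.10 and -0.18, and the edgeR adjusted p was 0.999 for each. With 3 libraries per formula and dose some genes separate by chance, and how many was not tested. The 6 genes are therefore not read as changes.

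Genes that responded to the extracts were compared next. With the formulas pooled, 2168 genes (12.9%) differed between 500 and 20 µg/mL in edgeR, 1083 higher (6.44%) and 1085 lower (6.45%) at 500 µg/mL. Since these genes were picked by the mean of both dose changes, that both formulas moved them the same way, as all 2168 did, is partly set by the choice. The size was also close: the genes that rose had a median log2 change of 0.189 in Sibjeondaebo-tang and 0.185 in Palmul-tang. For the genes that fell the medians were -0.180 in Sibjeondaebo-tang and -0.169 in Palmul-tang. The formula difference itself was not used to pick them, but both tests share each gene's estimated spread. Genes with a small p for dose can thereby have a small p for formula, so a share above that of all genes is no test. Its 95% interval lay within 1.2-fold for 91.6% of the 2168 genes, and for 144 (6.64%) the unadjusted p was under 0.05, against 4.16% of all genes. Among the genes that fell with dose, 57 of these were higher and 16 lower in Sibjeondaebo-tang. Among those that rose with dose, 37 were higher and 34 lower.

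**Figure D3:**
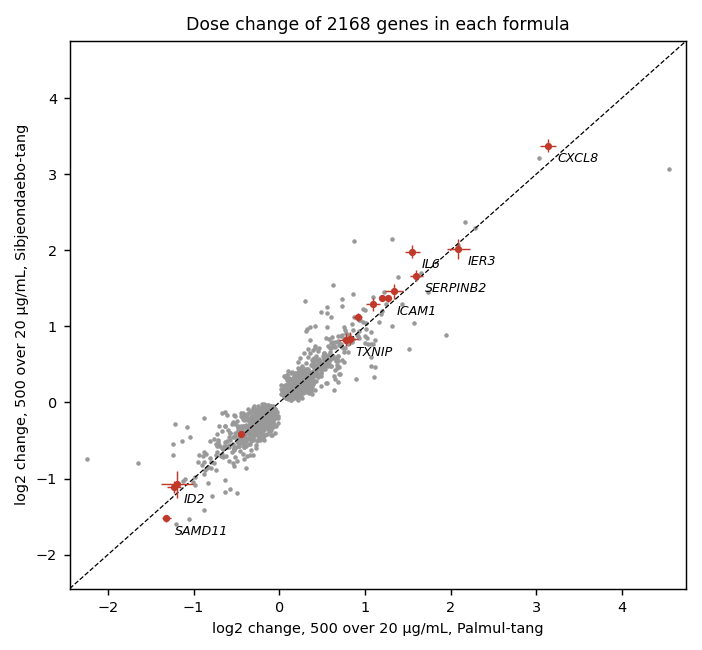
Each point is 1 of 2168 genes called between 500 and 20 µg/mL with the formulas pooled, with the log2 dose change in Palmul-tang on the x axis and in Sibjeondaebo-tang on the y axis. Red points are the 15 dose responders named in the text with their standard errors, and the dashed line marks equal change. CXCL8 lies at 3.38 in Sibjeondaebo-tang and 3.14 in Palmul-tang, and SAMD11 and ID2 lie at the lower left.

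Of 16 dose responders known from earlier results of these data, 15 lay above the floor for naming, and 0 of these passed the adjusted threshold between the formulas. Their dose changes spanned 0.43 to 3.26 in size (log2), whereas their formula differences were 0.15 or less in size and every 95% interval lay within 1.2-fold. CXCL8, the chemokine interleukin 8, had 10.5, 12.9 and 11.3 CPM in Sibjeondaebo-tang and 12.9, 10.98 and 12.1 CPM in Palmul-tang at 20 µg/mL. At 500 µg/mL it had 133, 118 and 108 CPM in Sibjeondaebo-tang and 108, 109 and 102 CPM in Palmul-tang. The formulas overlapped at both doses, and the pooled log2 fold change was 0.12 ± 0.053 (95% interval 0.0064 to 0.23; edgeR, adjusted p = 0.999). ICAM1, an adhesion molecule for leukocytes, averaged 179 ± 4.44 CPM in Sibjeondaebo-tang and 177 ± 2.37 CPM in Palmul-tang at 500 µg/mL (pooled log2 fold change -0.050 ± 0.026). SOD2, the mitochondrial superoxide dismutase, averaged 350 ± 28.6 CPM in Sibjeondaebo-tang and 327 ± 12.1 CPM in Palmul-tang at that dose (pooled 0.0100 ± 0.028). Its exons overlap 845 bases of another annotated entry of the same name on the same strand. ID2, an inhibitor of basic helix-loop-helix factors that fell with dose, averaged 10.3 ± 0.647 CPM in Sibjeondaebo-tang and 9.40 ± 0.744 CPM in Palmul-tang at 500 µg/mL (pooled 0.11 ± 0.046). The interval excluded 0 for 4 of the 15, CXCL8, SAMD11 and ID2 above it and SERPINB2 below it.

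Markers of stress, xenobiotic, sterol and growth pathways were close as well. Of 16 such genes 12 lay above this floor, and 0 passed the adjusted threshold, with the 12 intervals within 1.2-fold. HMOX1, the heme-degrading target of NRF2, had 68.3, 63.3 and 66.7 CPM in Sibjeondaebo-tang and 60.7, 65.1 and 60.5 CPM in Palmul-tang at 20 µg/mL. At 500 µg/mL it had 70.3, 71.0 and 74.9 CPM in Sibjeondaebo-tang and 68.4, 67.4 and 61.0 CPM in Palmul-tang. These groups overlapped at the low dose and not at the high one, and all means stood below the vehicle mean of 78.5 ± 1.64 CPM. The pooled log2 fold change of HMOX1 was 0.091 ± 0.028 (95% interval 0.034 to 0.15; unadjusted p = 0.00265; edgeR, adjusted p = 0.999). It was 0.037 without the 6 libraries numbered 3 (unadjusted p = 0.214), and from 0.072 to 0.11 with 1 library left out. CYP1B1, an enzyme under the aryl hydrocarbon receptor, averaged 143 ± 7.7 CPM in Sibjeondaebo-tang and 137 ± 2.69 CPM in Palmul-tang at 500 µg/mL (pooled 0.055 ± 0.021), and INSIG1, a brake on sterol synthesis, had 0.050 ± 0.020. The interval spanned 0 for the other 9, among them NQO1, HSPA1A, HMGCS1, DDIT3, MKI67 and VEGFA. HSPA1A has a near-identical copy, HSPA1B, with which it can share reads.

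**Figure D4:**
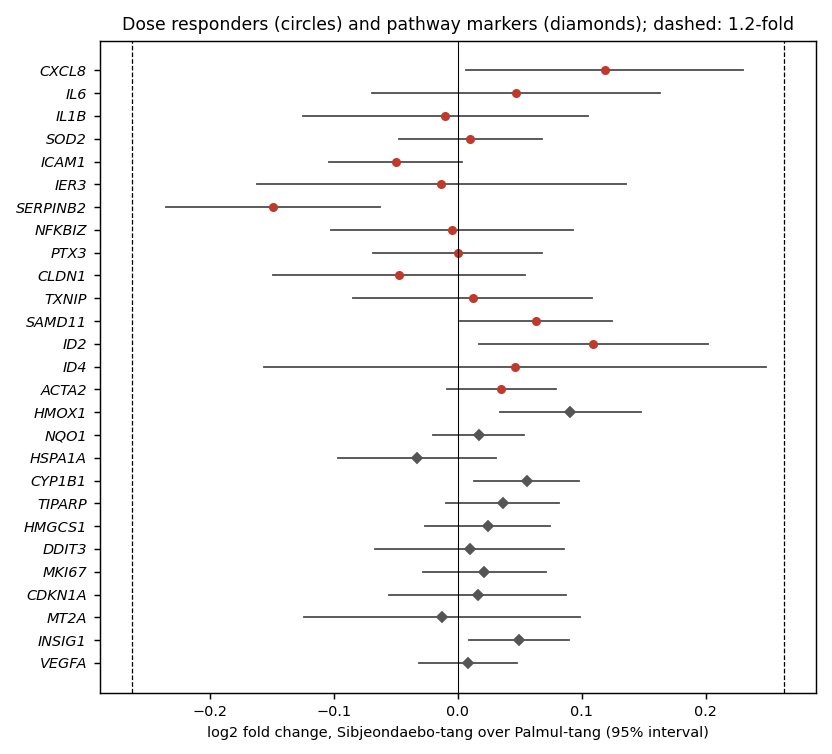
Points are log2 fold changes of Sibjeondaebo-tang over Palmul-tang with doses pooled (x axis) and lines are 95% intervals, for 15 dose responders (circles) and 12 pathway markers (diamonds). The 27 intervals lie inside the dashed lines at 1.2-fold, with SERPINB2 farthest below 0.

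Of 42 gene lists, 0 had a member called in either direction, against 0% of all genes, whose median log2 fold change was 0.00052. At an unadjusted p under 0.05, 2.22% of all tested genes were higher in Sibjeondaebo-tang and 1.93% lower. The lists were chosen with earlier results of these data known, so a count above these shares is no test of a list. The 31 tested NF-kappa B and cytokine genes, all of which rose with dose, had a median of -0.0049 between the formulas, with 2 higher and 3 lower at an unadjusted p under 0.05. PTGS2, the inducible cyclooxygenase, and CXCL8 were the higher ones. TRAF1, the subunit gene NFKB2 and the chemokine CXCL3 were the lower ones, with CXCL3 at 1.41 CPM in Sibjeondaebo-tang and 1.67 CPM in Palmul-tang. Of 28 NRF2 targets 2 were higher at that level, HMOX1 and TKT, and 1 was lower, SQSTM1, at a median of 0.0052.

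The list of BMP and ID genes, of which 10 of 15 fell with dose, had a median of 0.066. In it 3 of 15 had an unadjusted p under 0.05, all higher in Sibjeondaebo-tang: SMAD6, an inhibitor of BMP receptors, ID2 and ID1. Of all tested genes 2.22% were higher at that level. SMAD6 averaged 14.2 ± 0.559 CPM in Sibjeondaebo-tang and 12.8 ± 0.647 CPM in Palmul-tang at 20 µg/mL. Its average at 500 µg/mL was 7.86 ± 0.395 CPM in Sibjeondaebo-tang and 7.23 ± 0.907 CPM in Palmul-tang, with a pooled log2 fold change of 0.14 ± 0.047. ID1 averaged 217 CPM in Sibjeondaebo-tang and 205 CPM in Palmul-tang over the doses (0.083 ± 0.039). Its libraries at 500 µg/mL had 146, 145 and 179 CPM in Sibjeondaebo-tang and 149.8, 149.6 and 151 CPM in Palmul-tang, so 2 of the 3 Sibjeondaebo-tang libraries lay below all Palmul-tang libraries. Without replicate 3 of that dose the pooled value of ID1 was 0.056 (unadjusted p = 0.0873). The list's median was 0.011 at 20 µg/mL, 0.11 at 100 and 0.080 at 500.

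For the aryl hydrocarbon receptor, a sensor of planar aromatic compounds, 8 of 8 tested targets had positive values with a median of 0.036, where 50.5% of all tested genes were positive. Of these targets CYP1A1, ALDH3A1 and UGT1A6 stood under 1 CPM, and 6 of 8 were positive without Sibjeondaebo-tang at 500 µg/mL replicate 3. AHRR, the repressor that the receptor induces, averaged 42.3 ± 0.715 CPM in Sibjeondaebo-tang and 38.6 ± 1.74 CPM in Palmul-tang at 500 µg/mL (pooled 0.080 ± 0.030). Its exons overlap 244 bases of PDCD6 on the same strand. AHRR and CYP1B1 were the members with an unadjusted p under 0.05. Of 8 tested genes of calcium entry 0 had such a p, and TRPA1, the channel that cinnamaldehyde opens, was low, at 1.12 CPM in Sibjeondaebo-tang and 0.958 CPM in Palmul-tang, with a log2 fold change of 0.22 (95% interval -0.11 to 0.55; unadjusted p = 0.19).

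Among 20 ER chaperones and genes of the unfolded protein response 18 had negative values, with a median of -0.010, where 49.5% of all tested genes were negative. Without Sibjeondaebo-tang at 500 µg/mL replicate 3 the count was 15, and without the libraries numbered 3 it was 12. CALR, the chaperone calreticulin, averaged 1573 CPM in Sibjeondaebo-tang and 1617 CPM in Palmul-tang (-0.040 ± 0.016), and HSP90B1 averaged 1524 CPM in Sibjeondaebo-tang and 1568 CPM in Palmul-tang (-0.042 ± 0.019). Of 34 genes of hypoxia and glycolysis 28 had positive values (27 without that library, 23 without the libraries numbered 3), with a median of 0.014, and PFKFB3, an activator of glycolysis, alone had an unadjusted p under 0.05. In the 28 mitosis genes 0 had such a p, at a median of -0.0058, and in 23 S phase genes 2, CLSPN and MCM2, were lower at that level. Of 77 cytosolic ribosomal protein genes 1 was lower at this level, and the median was -0.0037.

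Genes of the mitochondrial genome had the lowest median of the lists shown in the plot of list members, -0.067, with 12 of 13 negative. Of all 16810 tested genes 8315 were negative. MT-ND6, a subunit of complex I, averaged 321 CPM in Sibjeondaebo-tang and 352 CPM in Palmul-tang (-0.14 ± 0.061, unadjusted p = 0.042), and MT-CO1, a subunit of cytochrome oxidase, averaged 14748 CPM in Sibjeondaebo-tang and 14648 CPM in Palmul-tang. Mitochondrial genes took 7.04% ± 0.442 of counts in Sibjeondaebo-tang and 7.22% ± 0.180 in Palmul-tang (SD, n = 9 each; exact permutation test within doses, two-sided, p = 0.273). The lowest share, 6.43%, was in the deepest library, Sibjeondaebo-tang at 100 µg/mL replicate 2, and the part of depth in this was not tested. Of 8 tested nuclear retained RNAs 8 had positive values, with MEG3, a long noncoding RNA, at 0.076 ± 0.024. Of all 16810 tested genes 8495 were positive. The share of counts in noncoding genes was 1.57% ± 0.022 in Sibjeondaebo-tang and 1.56% ± 0.028 in Palmul-tang (exact permutation test, p = 0.185).

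In the list of interferon genes 3 of 35 had an unadjusted p under 0.05, all lower: OASL, RSAD2 and IFIT2, which are induced by interferon and viral RNA. Of all tested genes 1.93% were lower at that level. OASL averaged 9.41 CPM in Sibjeondaebo-tang and 10.4 CPM in Palmul-tang. The median of the list was 0.019, on the other side from these 3. Sibjeondaebo-tang at 100 µg/mL replicate 2 stood apart in this list. MX1, an antiviral GTPase, had 14.1, 51.5 and 18.2 CPM in Sibjeondaebo-tang and 14.8, 16.5 and 13.7 CPM in Palmul-tang at 100 µg/mL. OAS1, a sensor of double-stranded RNA, had 0.967, 5.38 and 1.88 CPM in Sibjeondaebo-tang and 1.19, 1.07 and 0.511 CPM in Palmul-tang at that dose. MX2, OAS2, IFIT1 and IFI44L had their highest value of the 18 libraries in the same one. Without it 15 of 35 members were positive in place of 24, the median was -0.014, and 5 were lower and 0 higher at an unadjusted p under 0.05. MX1 was then -0.11, against 0.22 in all libraries, and OASL was -0.18. Of 14 glucocorticoid receptor targets 3 were higher at that level, SGK1, CEBPD and TSC22D3, and FKBP5, a chaperone of the receptor, was lower. Of all tested genes 2.22% were higher and 1.93% lower. With each of the 18 libraries left out in turn, TSC22D3 kept such a p in 6 fits, FKBP5 in 15, and SGK1 and CEBPD in 18. CEBPD, a transcription factor of the acute phase, averaged 12.7 CPM in Sibjeondaebo-tang and 11.2 CPM in Palmul-tang (0.18 ± 0.060). Its value was 0.12 without Sibjeondaebo-tang at 500 µg/mL replicate 3, which had 16.5 CPM against 11.2 and 12.6 CPM in replicates 1 and 2.

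**Figure D5:**
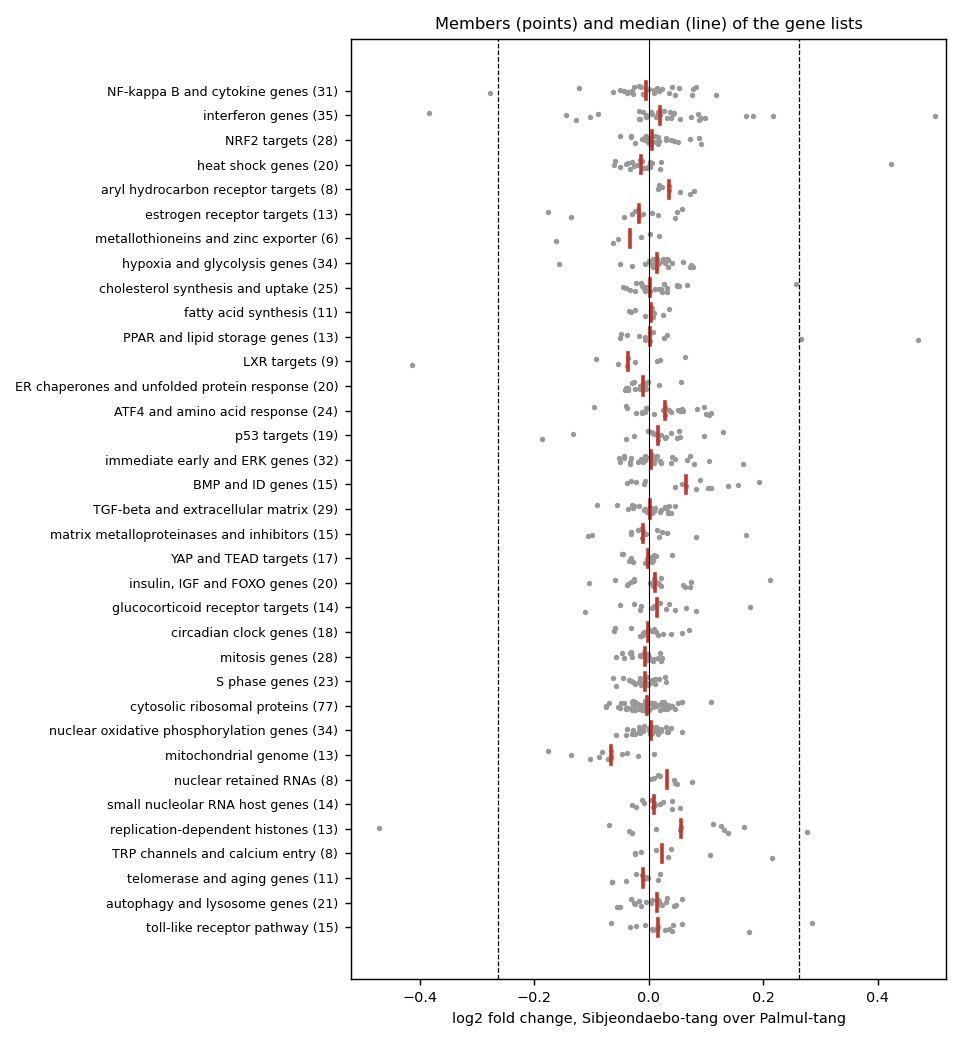
Each row is 1 of 35 gene lists with at least 5 tested members (number in brackets), grey points are the members' log2 fold changes of Sibjeondaebo-tang over Palmul-tang with doses pooled (x axis) and red lines are medians; dashed lines mark 1.2-fold. Marker lists of cell types are left out, and 1 member beyond ±0.5 is drawn at the limit. Medians lie between -0.067 for the mitochondrial genome and 0.066 for BMP and ID genes.

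The formula difference could depend on dose, and the interaction of formula and dose was tested for that. The edgeR test called 0 of 16810 genes (0%), 487 (2.9%) had an unadjusted p under 0.05, and DESeq2 called 0. NPTX1, a pentraxin secreted by neurons, had the smallest p. It had 4.39, 4.49 and 4.35 CPM in Sibjeondaebo-tang and 5.15, 5.12 and 4.89 CPM in Palmul-tang at 20 µg/mL. At 500 µg/mL it had 9.64, 9.25 and 10.97 CPM in Sibjeondaebo-tang and 7.70, 7.26 and 7.36 CPM in Palmul-tang. The formulas did not overlap at either dose, with Sibjeondaebo-tang lower at 20 and higher at 500 µg/mL. Its dose change was 1.17 ± 0.086 in Sibjeondaebo-tang and 0.56 ± 0.089 in Palmul-tang, a difference of 0.62 on the log2 scale (95% interval 0.36 to 0.87; unadjusted p = 0.000132; edgeR, adjusted p = 0.99987).

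MT1E, a metallothionein that binds zinc and copper, had 26.0, 23.4 and 25.1 CPM in Sibjeondaebo-tang and 22.3, 23.1 and 24.5 CPM in Palmul-tang at 20 µg/mL. At 500 µg/mL it had 17.2, 17.6 and 20.3 CPM in Sibjeondaebo-tang and 21.2, 23.6 and 24.5 CPM in Palmul-tang. Sibjeondaebo-tang was below Palmul-tang without overlap at the high dose, and the groups overlapped at the low dose. The dose changes differed by -0.43 (95% interval -0.63 to -0.22; unadjusted p = 0.000443; edgeR, adjusted p = 0.99987). MT1E shares long stretches with other metallothionein genes, so its counts are uncertain. The next 3 were GUSBP11, a pseudogene, BOLA2, which has a near-identical copy, and IFITM1, whose exons overlap those of IFITM2 on the same strand by 351 bases, and counts of all 3 are uncertain for that reason. IL6, the cytokine, had dose changes of 1.98 ± 0.085 in Sibjeondaebo-tang and 1.55 ± 0.086 in Palmul-tang, a difference of 0.43 (95% interval 0.17 to 0.68; unadjusted p = 0.00601; edgeR, adjusted p = 0.99987). It is a dose responder outside the 5 genes with the smallest interaction p. In Sibjeondaebo-tang at 20 µg/mL its replicate 1 was low, at 4.98 CPM against a mean of 6.06 CPM in the other 2. What this library adds to the difference was not tested.

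Dose held more of the spread between these libraries than formula did. Over the 10294 genes above a mean log2 CPM of 3, dose held 35.3% of the sum of squares of log2 CPM and formula 3.82%. Formula by dose held 7.76%, replicate number 12.5% and the rest 40.6%. Per degree of freedom, dose had 4.35 times the mean square of the rest, replicate number 1.54 times and formula 0.941 times. The first principal component, 31.8% of the variance, followed dose, which accounted for 99.6% of its spread, and formula for 0.020%. Replicate number accounted for 43.4% of the spread of the second component and formula for 4.61%.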

How the data were processed

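The submitters' processing notes name FastQC 0.11.9, Trim Galore 0.6.5, STAR 2.7.3a and RSEM 1.3.3 and the build hg38, with no role or order. What the authors deposited is 1 expected count per gene and library, an estimate: 24.0% of nonzero values were fractional. Which annotation release, strand setting or filter was used is not given in the sources used here. Without a stated strand, reads of overlapping genes on opposite strands may not be told apart. The table held 60675 genes in 279 columns, of which 30 were used and 249 left out. Symbols were found for 56558 genes and positions in GENCODE release 29 (GRCh38) for 57055.

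Expected counts were rounded. In edgeR 4.0.16 (R 4.3.3), genes were filtered by filterByExpr with the 6 groups, scaled by TMM and fitted with dose as a factor plus formula (estimateDisp, robust glmQLFit). The quasi-likelihood test was adjusted by Benjamini-Hochberg at 0.05. CPM are TMM-scaled, and log2 CPM used a prior count of 2. Intervals are at 95%. The interaction was an F test on 2 degrees of freedom. Shares of counts were tested by exact permutation of formula within doses (8000 arrangements). The fit was tested on simulated data. Whether replicate numbers pair the samples was checked on their deviations. Of 9 same-number pairs 2 correlated over 0.1, at a median of 0.036. Over all groups the median was 0.064 for the same number and -0.046 for other numbers. Pairs this few cannot exclude pairing, and the main fit had no replicate block.

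Named genes have a symbol and a log2 CPM averaging 1 or more: any called genes, else the 10 each way with the smallest p, 5 with the smallest interaction p, the responders and markers, and up to 3 members per list by p. BEX3, HSDL2, SMARCC1, ABCC9, IQCH, NFKB2, CXCL3, TSC22D3, RSAD2, MX1, MX2, OAS1, OAS2, IFIT1, IFI44L, CYP1A1, ALDH3A1, UGT1A6, TRPA1, MT-CO1 and markers of cell types below that floor lie outside this rule and were named after their values were seen. The comparison, genes and lists were chosen with earlier results of these data known, and some list members were picked in that light. Labels alone set which libraries are in which group. Alternatives were other scalings, DESeq2 1.42.0, filters, rounding, the dose term, a replicate block, and each dose or library left out.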

Additional observations from a re-analysis of the deposited data

Results flagged for a closer look

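After the dose means were taken out on the log2 scale, 1 library stood apart from the other 8 of its formula in 15 of 184 sets of 9 libraries examined, where chance alone gives about 1 in 20. IL6 was low in Sibjeondaebo-tang at 20 µg/mL replicate 1, at 4.983 CPM against a mean of 6.06 CPM in the other 2 libraries of that dose. NFKBIZ, an NF-kappa B regulator, was low in Palmul-tang at 100 µg/mL replicate 1, at 5.905 CPM against 7.037 CPM. SERPINB2 was high in Palmul-tang at 20 µg/mL replicate 1, at 43.22 CPM against 37.34 CPM. SOD2 was high in Sibjeondaebo-tang at 500 µg/mL replicate 1, at 382.1 CPM against 333.4 CPM. CDKN1A, a cell cycle inhibitor, was high in Sibjeondaebo-tang at 20 µg/mL replicate 3, at 24.09 CPM against 21.21 CPM.

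In Sibjeondaebo-tang at 100 µg/mL replicate 2, interferon genes were high: MX1 at 51.54 CPM against 16.14 CPM in the other 2 libraries of that dose, MX2 at 13.31 against 5.776 CPM, and OAS1 at 5.378 against 1.424 CPM. OAS2 had 24.65 against 9.717 CPM, IFIT1 22.28 against 12.79 CPM and IFI44L 63.14 against 38.12 CPM. These 6 genes were picked after their values were seen, so that their number is no count of independent cases. Among glucocorticoid receptor targets, CEBPD was high in Sibjeondaebo-tang at 500 µg/mL replicate 3, at 16.52 against 11.86 CPM. SGK1 was low in Sibjeondaebo-tang at 20 µg/mL replicate 1, at 64.28 against 69.57 CPM. TSC22D3 was low in Sibjeondaebo-tang at 20 µg/mL replicate 2, at 13.37 against 15.41 CPM. IQCH was low in Sibjeondaebo-tang at 20 µg/mL replicate 3, at 3.106 against 4.815 CPM.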

How the results depend on the processing

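The count of 0 genes for the formulas with doses pooled became 12 with no filter on low counts (6 higher, 6 lower in Sibjeondaebo-tang, among them BEX1, PLAT, SERPINB2 and SFRP2), 2 with DESeq2 (BEX1 and PLAT), and 1, BEX1, with truncated counts, with all 30 libraries in the fit and with the filter run on the formulas as groups. Without the dose 20 it was 1, the pseudogene RPS26P6, which is near 0 CPM. A fit with a replicate block called 1, BEX1. The submitters' sample codes group the libraries of both formulas by replicate number, but no label says what the grouping means. Whether the block is a pairing by design is therefore not known. Of 9 same-number pairs 2 had deviations correlated over 0.1, at a median of 0.036, which cannot exclude pairing. With each library left out the count ran from 0 to 2: it was 1, BEX1, without Sibjeondaebo-tang at 500 µg/mL replicate 3, and 2, BEX1 and RPS26P6, without Sibjeondaebo-tang at 20 µg/mL replicate 1. BEX1 was lower in Sibjeondaebo-tang under 35 of 35 alternatives, with log2 fold changes from -0.13 to -0.100 and adjusted p from 0.000357 (DESeq2) to 0.99992 (no dose term). The interaction count of 0 became 33 with no filter, among them MT1E and BOLA2, and stayed 0 otherwise. The dose count of 2168 ran from 2019 to 2362, and from 1807 to 2244 with 1 library left out. The difference in total counts, 2.38 M, ran from 1.40 M to 2.99 M with 1 library left out, with an exact permutation p of 0.04 at 2.99 M, without Sibjeondaebo-tang at 100 µg/mL replicate 1. NPTX1 had -0.0046 without the dose 500, so its pooled value rests on that dose. Of 1855 values of 53 named genes whose interval excluded 0, 1854 kept their sign, and 28 genes whose interval spans 0 turned sign in 120 values. With 1 library left out, 2 of the 53 moved by over 1.5 times: CXCL8 was 0.076 without Sibjeondaebo-tang at 500 µg/mL replicate 1, and ID2 was 0.072 without Palmul-tang at 100 µg/mL replicate 1. The cause of these shifts was not tested. By median half-width, intervals were widest for genes under a mean log2 CPM of 1, and the part of depth in this was not tested. All intervals cover the spread between these libraries only.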
